A study of Mus musculus with 9 samples.

Results

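The genes described here take fatty acids into heart muscle cells, activate them, carry them into mitochondria and oxidize them, together with genes that store or release them as triglyceride. They were taken by symbol from a list of 38 genes in 10 steps, and all 38 were among the 21989 gene symbols of the FPKM table (fragments scaled by transcript length and by the library's total, so that levels compare between genes per length). Poly-A RNA of whole hearts was sequenced in male mice of the C57BL/6J strain, 18 to 20 weeks old, in 3 groups of 3. LD hearts came from mice with the operation called TAC in the labels, usually read as transverse aortic constriction, which loads the left ventricle with pressure, and these mice were given Lingguizhugan decoction, a herbal preparation. TAC hearts came from mice with the same operation given distilled water, and sham hearts from sham-operated mice given distilled water. By its title the study asks how the decoction acts in heart failure. The labels speak of 3 biological repeats and name no litter, operation day or batch, so p-values measure the spread between these 9 libraries.

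The adult heart draws most of its energy from fatty acids. They are freed from circulating triglyceride, cross the cell membrane, are joined to coenzyme A and pass the mitochondrial membranes as carnitine esters, a gate that malonyl-CoA closes. Inside, dehydrogenases of differing chain length preference start a cycle that releases acetyl-CoA and feeds electrons to the respiratory chain. Many of these genes are known targets of the nuclear receptor PPAR alpha and of estrogen-related receptors, and lower levels of them are a known feature of the failing heart.

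Library totals recovered from the FPKM values were 7414304, 18042033 and 16031239 fragments in LD, 8388732, 14849470 and 8944561 in TAC and 18079383, 14496717 and 14860567 in sham, for replicates 1, 2 and 3, the order used for all values below. TAC replicate 3 and LD replicate 3 stood apart: on the first principal component of all genes tested (29.4% of the variance) they lay at -51.0 and 48.3, and the other 7 libraries between -10.4 and 17.1. In TAC replicates 2 and 3 and sham replicates 1 and 3, between 5.80% and 9.77% of the recovered counts up to 30 were odd, against 47.1% to 52.6% in the other 5 libraries. The cause of this split was not tested. It is called the counting class below, and all 3 LD libraries share a class with TAC replicate 1 and sham replicate 2. All 10 cardiomyocyte markers were at 24.4 FPKM or more in every library. Of the adipocyte markers, which fat around the heart would bring, Plin1 was listed at 0 in all 9 libraries, and Adipoq, Cidec, Cfd, Retn, Lep, Ucp1 and Car3 reached at most 2.90 FPKM. Adipoq was above 0 only in LD replicate 3 (1.72 FPKM) and TAC replicate 3 (1.45 FPKM). The other markers of that list were detected in every library, Cidea at 14.3 to 33.7 FPKM and Fabp4, which endothelial cells also express, at 2275 to 3932 FPKM. In this bulk tissue, fewer cells of a type and less RNA per cell cannot be told apart.

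Of the 38 genes, 37 passed the filter of at least 1 FPKM in at least 3 libraries, and 11380 genes in all were tested. Mean levels over the 9 libraries spanned 3 genes at or above 1000 FPKM (Lpl, Etfb and Ech1), 14 between 100 and 1000, 19 between 10 and 100, and Acad10 (8.03) and Angptl4 (0.0508) below. Between the highest and the lowest library, 11 of the 37 genes varied by less than 2-fold, 23 by 2- to 4-fold, and Acadvl, Acads and Ucp3 by 4-fold or more.

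In TAC against sham, most of these genes had lower means in TAC hearts, and none passed limma's adjusted threshold. The median log2 difference (TAC minus sham, on the log2(FPKM + 1) scale) was -0.32 over the 37 genes and 0.00 over all genes tested. Of the 37 genes, 31 lay below 0, where 50% of all genes did. Acot1, Plin5 and Dgat2 were lower at an unadjusted p under 0.05 (2.58% of all genes were) and none was higher (2.85% of all genes). Together with Acsl1 and Acads they also made up the 5 genes whose TAC values all lay below the sham values (4.62% of all genes), and no gene lay above (5.22%). At an adjusted p under 0.05 limma called 0% of all genes, with 294 lower and 324 higher at an unadjusted p under 0.05, while limma's voom on the recovered fragments called 4, none of them among the 37. Per library, the median difference of the 37 genes from the sham mean was -0.03, -0.19 and -0.63 in TAC hearts and -0.02, 0.07 and -0.07 in sham hearts. TAC replicate 3 was thus far below the others and TAC replicate 1 within the sham range. Leaving out TAC replicate 3 gave a median difference of -0.11 with 27 of 37 below 0, and leaving out TAC replicate 1 gave -0.39. Within the libraries of rare odd counts, 2 TAC against 2 sham, it was -0.39, and within the others, 1 against 1, -0.06.

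In LD against TAC, which share the TAC libraries with the first comparison, the median was 0.26 over the 37 genes and -0.10 over all genes tested. The all-gene median moved to 0.01 after median-of-ratios scaling and to -0.19 after scaling to equal sums, and that of the 37 genes to 0.40 and 0.15, above the median gene on each scale. Of the 37 genes, 10 lay below 0, against 60.4% of all genes. Acads, Etfb and Acot1 were higher at an unadjusted p under 0.05 (2.51% of all genes) and Lpl was lower (6.31%). Without overlap of the FPKM as given, Acads was higher (3.73% of all genes) and Acsl1 lower (8.14%). limma's adjusted threshold passed 0% of all genes here, with 286 higher and 718 lower at an unadjusted p under 0.05 (514 and 456 after median-of-ratios scaling), and voom called 0. Without TAC replicate 3 the median of the 37 genes was 0.08, and without TAC replicate 3 and LD replicate 3 it was 0.10. With the counting class as a term it was 0.11, and within the class that holds LD, 3 LD libraries against TAC replicate 1 alone, it was -0.05.

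In LD against sham, the median was -0.03 over the 37 genes and -0.11 over all genes tested, with 20 of the 37 below 0 against 62.8% of all genes. That sign depends on the scale: the 37 genes stood at 0.09 after median-of-ratios scaling and at -0.12 after scaling to equal sums. It was also above 0 without LD replicate 1 (0.10) and without sham replicate 2 (0.03). Acsl1 was the only one of the 37 with an unadjusted p under 0.05, lower in LD (3.59% of all genes), and none was higher (1.52%). Acsl1 and Acad10 were lower in every LD heart than in every sham heart (8.76% of all genes), and no gene of the 37 was higher in every one (4.47%). limma called 0% of all genes, with 408 lower and 173 higher at an unadjusted p under 0.05 (280 and 301 after median-of-ratios scaling), and voom called 3, none of them among the 37. With the counting class as a term the median was -0.20, with 33 of 37 genes below 0, and within the class that holds LD, against sham replicate 2 alone, it was also -0.20. Asked whether any group differed, limma's F test across all genes gave Acot1 an adjusted p of 0.724 (unadjusted p = 0.0156) and Acads an adjusted p of 0.73 (unadjusted p = 0.0437).

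The unadjusted p of these genes depended on the setting. Of the 21 other settings, it was under 0.05 in TAC against sham in 21 for Acot1, 16 for Plin5 and 13 for Dgat2. In LD against TAC it was under 0.05 in 16 for Acads, 16 for Acot1, 7 for Lpl and 6 for Etfb, and in LD against sham in 8 for Acsl1. Genes above 0.05 in the reported fit also came under it in some settings, among them Acad10 in 9 in LD against sham and Acads in 5 in TAC against sham.

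**Figure D1:**
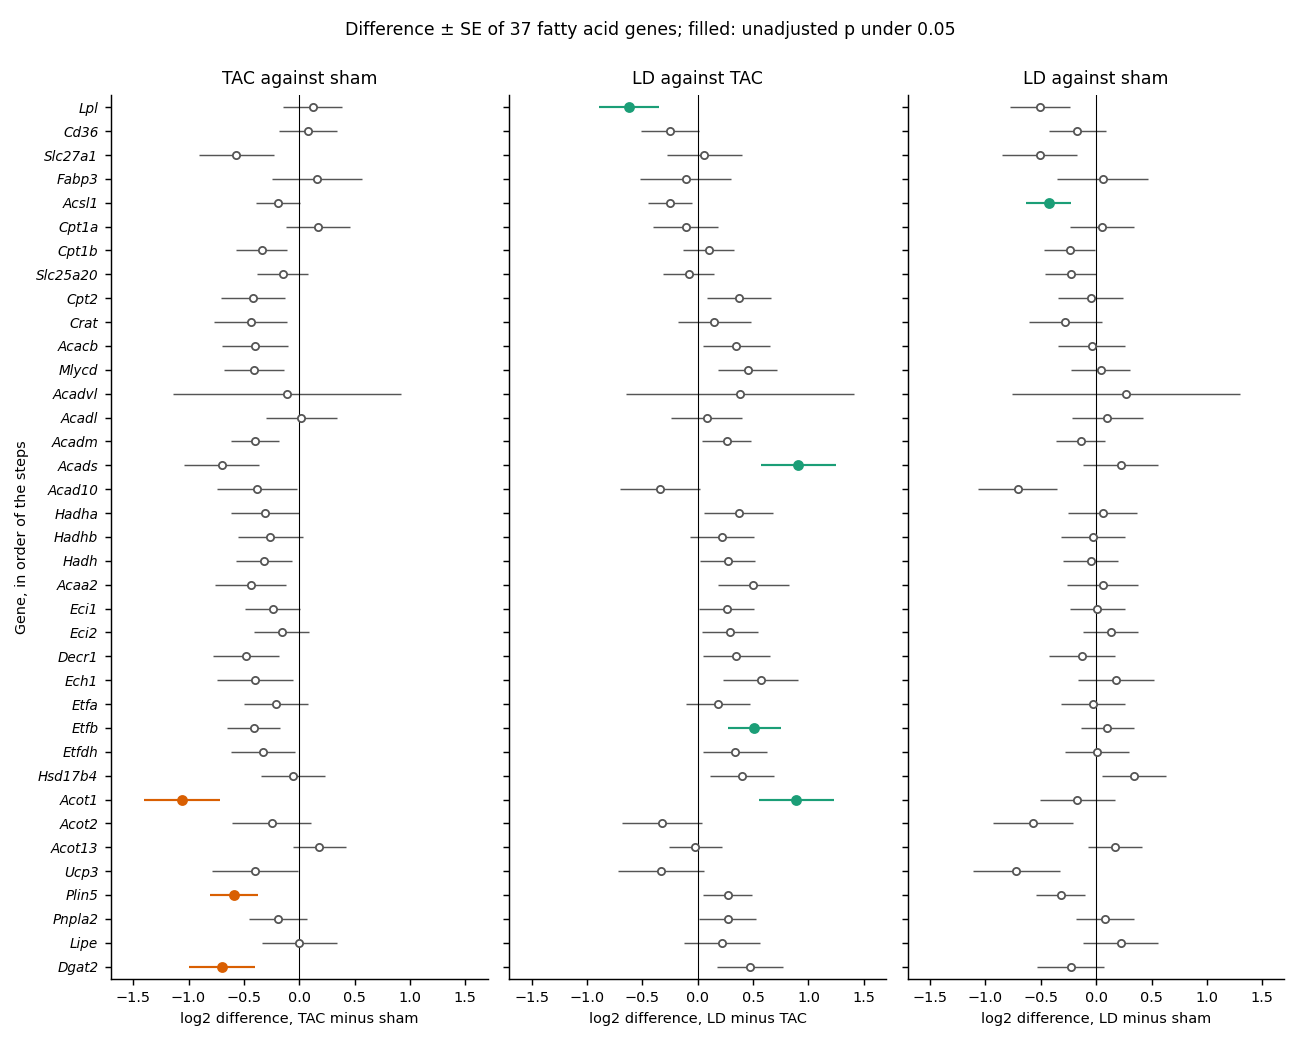
Log2 difference with its standard error (x axis) of the 37 tested genes in order of the steps (y axis), in TAC against sham, LD against TAC and LD against sham. Filled points have an unadjusted p under 0.05. In the left panel 31 of 37 points lie below 0, in the middle panel 10, and in the right panel 20.

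Uptake into the cell was the step with a median above 0 in TAC against sham (0.10, with 3 of its 4 tested genes above 0). The medians of the other steps lay below 0. Without TAC replicate 3, Lpl, Cd36, Slc27a1 and Fabp3 stood at -0.01, -0.03, -0.45 and 0.64, with Fabp3 alone above 0. Without sham replicate 3 these genes stood at 0.07, -0.18, -0.34 and 0.17, so the sign of this step depended on single libraries. Lpl, the lipoprotein lipase that frees fatty acids from circulating triglyceride (chromosome 8, 68880491 to 68907448, GRCm38), had the highest mean over the 9 libraries of all 38 genes, although Etfb was higher in LD replicates 2 and 3. It had 2569, 1533 and 1220.2 FPKM in LD hearts, 2095, 2721 and 3089.9 FPKM in TAC hearts and 2309, 2653 and 2260.0 FPKM in sham hearts. LD replicates 2 and 3 lay below all other hearts, while LD replicate 1 lay among the TAC and sham values. Lpl differed by -0.62 ± 0.27 between LD and TAC (log2 difference ± SE, limma's unadjusted p = 0.0385, adjusted p = 0.547), by -0.51 ± 0.27 between LD and sham, and by 0.12 ± 0.27 between TAC and sham. Without LD replicate 3 the LD against TAC value was -0.39 and the LD against sham value -0.27, and without LD replicate 1 they were -0.93 and -0.81. With the GC content curve of each library removed the LD against TAC value was -0.33. Cd36, the main membrane transporter of fatty acids, averaged 306 ± 11.1 FPKM in LD, 371 ± 82.7 in TAC and 356 ± 104 in sham (SD, n = 3). Slc27a1, a fatty acid transport protein, averaged 110.2 ± 35.5, 109 ± 51.3 and 155 ± 46.3 FPKM in LD, TAC and sham, and Fabp3, the heart's cytosolic fatty acid binding protein, 94.3 ± 37.2, 109 ± 59.9 and 90.9 ± 34.8 FPKM. For these 3 genes the groups overlapped in each comparison. The recovered length of Fabp3, 1282 bases, was above the 823 of its longest annotated transcript. Of its exon bases, 19.6% also belong to other genes, so its level is uncertain. Angptl4, a secreted inhibitor of Lpl, was near the limit of detection: 0, 5 and 3 fragments in LD hearts, 3, 14 and 4 in TAC hearts and 6, 2 and 12 in sham hearts. The 0 in LD replicate 1 allows up to 0.0531 FPKM (3 fragments, counting error only), more than the 0.0469 FPKM of TAC replicate 1, so no order of the groups can be read from these values. Its recovered length of 7627 bases was above the 3308 of its longest annotated transcript, so its level is uncertain beyond counting error. Angptl4 did not pass the filter for the test.

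Acsl1, the main acyl-CoA synthetase of the heart, had 3 groups that did not overlap in FPKM as given, and its highest value was at most 1.09 times its lowest within each group (chromosome 8, 46471037 to 46536051). Its values were 46.3, 44.6 and 44.9 FPKM in LD hearts, 52.2, 52.6 and 56.9 FPKM in TAC hearts and 63.3, 63.3 and 57.9 FPKM in sham hearts. Every LD heart lay below every TAC heart, and every TAC heart below every sham heart. Acsl1 differed by -0.43 ± 0.20 between LD and sham (limma's unadjusted p = 0.0478, adjusted p = 0.875), by -0.25 ± 0.20 between LD and TAC and by -0.19 ± 0.20 between TAC and sham. The standard error is limma's moderated one and exceeds the gene's own spread. After median-of-ratios scaling the 3 differences were -0.31, -0.11 and -0.20. That scaling divides by 0.857 in LD replicate 3 and by 1.04, 1.01 and 1.12 in TAC hearts, which puts LD replicate 3 above the TAC hearts. The order of LD below TAC and the narrow range within LD therefore hold for the FPKM as given and not on that scale. Of its exon bases, 9.91% also belong to a predicted gene on the other strand, and no source used here states whether strand was counted.

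The carnitine shuttle and its malonyl-CoA control had 7 genes, of which 6 lay below 0 in TAC against sham and 5 above 0 in LD against TAC, none at an unadjusted p under 0.05. Cpt1b, the muscle form of the outer membrane transferase that commits fatty acids to oxidation, was its highest gene with 318, 290.3 and 230.0 FPKM in LD hearts, 286, 204 and 294 FPKM in TAC hearts and 339, 291 and 353 FPKM in sham hearts. TAC replicate 2 was lowest, and the groups overlapped in each comparison. Cpt1b differed by -0.34 ± 0.23 between TAC and sham and by 0.10 ± 0.23 between LD and TAC. Most of its exon bases (81.4%) also belong to a predicted read-through gene on the same strand, so its level may include that transcript. Cpt1a, the isoform that leads in liver, stood far lower at 10.5 ± 2.46 FPKM in LD, 11.4 ± 2.87 in TAC and 10.1 ± 3.01 in sham. Cpt2, the inner membrane transferase, Crat, which moves acetyl groups to carnitine, and Mlycd, which removes malonyl-CoA, differed by -0.42 ± 0.29, -0.44 ± 0.33 and -0.41 ± 0.27 between TAC and sham. In each of these 3 genes TAC replicate 3 was the lowest of all 9 libraries, at 34.1 FPKM for Cpt2, where the other 8 libraries held 66.1 to 87.8. Without that library the 3 differences were -0.03, -0.02 and -0.11. The recovered length of Mlycd, 4072 bases, was above the 2128 of its longest annotated transcript, so its level is uncertain. Acacb, which makes malonyl-CoA at the mitochondrion, differed by 0.35 ± 0.30 between LD and TAC and by -0.40 ± 0.30 between TAC and sham. Slc25a20, the carnitine carrier of the inner membrane, differed by -0.08 ± 0.23 and -0.15 ± 0.23.

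The acyl-CoA dehydrogenases, which take the first step of each round of oxidation, included the largest difference between LD and TAC of the 37 genes. Acads, the short-chain enzyme (chromosome 5, 115110299 to 115119346), had 43.4, 53.1 and 128 FPKM in LD hearts, 39.8, 39.6 and 26.9 FPKM in TAC hearts and 62.7, 58.5 and 51.0 FPKM in sham hearts. All TAC values lay below all LD and all sham values, and LD replicate 3 was far above the rest. Acads differed by 0.91 ± 0.34 between LD and TAC (limma's unadjusted p = 0.0177, adjusted p = 0.537), by -0.70 ± 0.34 between TAC and sham (unadjusted p = 0.0594) and by 0.22 ± 0.34 between LD and sham. Without LD replicate 3 these values were 0.45 for LD against TAC and -0.25 for LD against sham, and without TAC replicate 3 the TAC against sham value was -0.52. Acadm, the medium-chain enzyme and the highest of the step, had 197, 234 and 217 FPKM in LD hearts, 162, 167 and 214 FPKM in TAC hearts and 219, 295 and 208 FPKM in sham hearts. TAC replicates 1 and 2 were the lowest hearts and TAC replicate 3 lay among the LD values. Acadm differed by -0.40 ± 0.22 between TAC and sham (limma's unadjusted p = 0.0888, adjusted p = 0.959) and by -0.53 without TAC replicate 3, and by 0.26 ± 0.22 between LD and TAC. Acad10, a less studied member of this enzyme family, had 6.72, 7.78 and 3.40 FPKM in LD hearts, 13.4, 6.34 and 4.67 FPKM in TAC hearts and 9.28, 9.58 and 11.1 FPKM in sham hearts. All LD values lay below all sham values, with LD replicate 3 lowest, and the TAC values spanned both. Acad10 differed by -0.71 ± 0.36 between LD and sham (limma's unadjusted p = 0.0663, adjusted p = 0.875) and by -0.41 without LD replicate 3. Acadl, the long-chain enzyme, differed by 0.02 ± 0.32 between TAC and sham and by 0.08 ± 0.32 between LD and TAC. Its recovered length of 3904 bases was above the 1916 of its longest annotated transcript, so its level is uncertain.

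Acadvl, the very-long-chain enzyme, varied most of all 37 genes and did so within each group. It had 5.66, 5.02 and 28.6 FPKM in LD hearts, 4.08, 35.1 and 1.91 FPKM in TAC hearts and 3.39, 51.8 and 1.92 FPKM in sham hearts. A single library in each group was high (LD replicate 3, TAC replicate 2 and sham replicate 2), and the highest sham value was 27.0 times the lowest. Of its exon bases, 42.9% also belong to Dvl2 on the other strand, and its recovered length of 4385 bases was above the 2168 of its longest annotated transcript. Its values were therefore taken as uncertain, and its differences of -0.11 ± 1.03 between TAC and sham and 0.38 ± 1.03 between LD and TAC resolve nothing.

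The later steps inside the mitochondrion, with 4 genes for the hydratase, dehydrogenase and thiolase steps, 4 auxiliary enzymes for unsaturated chains and 3 of the electron transfer flavoprotein, all lay below 0 in TAC against sham and above 0 in LD against TAC, with step medians of -0.32, -0.32 and -0.33 and of 0.32, 0.32 and 0.34. Both comparisons use the TAC libraries. Acaa2, the mitochondrial thiolase, had 754, 1286 and 1041 FPKM in LD hearts, 1076, 834 and 398 FPKM in TAC hearts and 851, 1016 and 1032 FPKM in sham hearts. TAC replicate 3 was lowest and TAC replicate 1 among the highest. Acaa2 differed by -0.44 ± 0.32 between TAC and sham and by -0.02 without TAC replicate 3, and by 0.50 ± 0.32 between LD and TAC and by 0.08 without that library. Ech1, an isomerase for unsaturated chains (chromosome 7, 28825217 to 28832247), had 1265, 2069 and 1400.3 FPKM in LD hearts, 1718, 1176 and 552 FPKM in TAC hearts and 1238, 1469 and 1397 FPKM in sham hearts. Here too TAC replicate 3 was lowest, while LD replicate 2 and TAC replicate 1 were highest. Ech1 differed by -0.40 ± 0.34 between TAC and sham, and by 0.06 without TAC replicate 3. Etfb, a subunit of the flavoprotein that collects electrons from the dehydrogenases (chromosome 7, 43444083 to 43457800), had 1912, 2127 and 2474 FPKM in LD hearts, 2066, 1443 and 1156 FPKM in TAC hearts and 1981, 2039.5 and 2002 FPKM in sham hearts. Its highest sham value was 1.03 times the lowest, TAC replicates 2 and 3 lay below all other hearts, and TAC replicate 1 above all sham hearts. Etfb differed by 0.51 ± 0.24 between LD and TAC (limma's unadjusted p = 0.0479, adjusted p = 0.563; 0.32 without TAC replicate 3 and 0.28 with the counting class as a term) and by -0.41 ± 0.24 between TAC and sham (-0.22 without TAC replicate 3). Of its 1164 exon bases, 678 also belong to other annotated genes, 617 of them to a predicted gene on the same strand. The remaining genes of these steps (Hadha, Hadhb, Hadh, Eci1, Eci2, Decr1, Etfa and Etfdh) differed by -0.48 to -0.16 between TAC and sham and by 0.18 to 0.37 between LD and TAC. Without TAC replicate 3 these ranges were -0.70 to 0.04 and 0.00 to 0.57, with Hadha (0.04) and Eci1 (0.01) above 0 in TAC against sham. Hsd17b4, the peroxisomal bifunctional enzyme, had 25.4, 22.0 and 31.4 FPKM in LD hearts, 28.2, 20.4 and 12.8 FPKM in TAC hearts and 22.9, 23.3 and 15.8 FPKM in sham hearts. Its groups overlapped in each comparison, with differences of 0.40 ± 0.29 between LD and TAC and -0.06 ± 0.29 between TAC and sham.

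**Figure D2:**
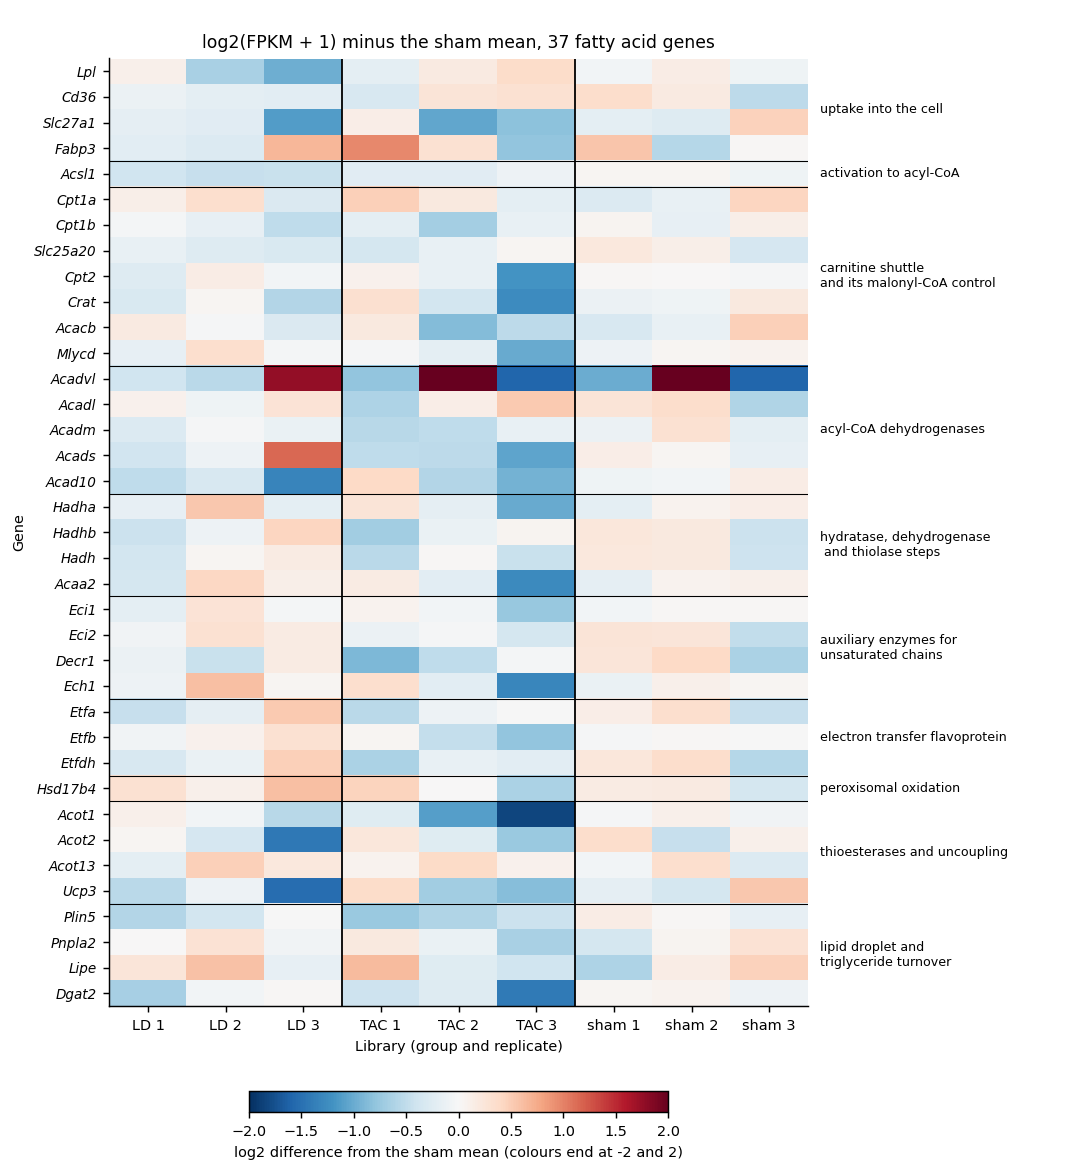
Log2(FPKM + 1) of the 37 tested genes (rows, by step) in each library (columns) minus the mean of the sham libraries, red above and blue below that mean. TAC replicate 3 has the most blue, with 31 genes below the sham mean. Acadvl shows dark red in LD replicate 3, TAC replicate 2 and sham replicate 2.

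Acot1, a thioesterase that splits acyl-CoA in the cytosol and a known PPAR alpha target (chromosome 12, 84009490 to 84018371), had the largest difference of the 37 genes in TAC against sham. It had 65.8, 59.5 and 41.4 FPKM in LD hearts, 52.0, 28.2 and 16.6 FPKM in TAC hearts and 60.4, 66.0 and 58.6 FPKM in sham hearts. All TAC values lay below all sham values, TAC replicate 1 by the least, and LD replicate 3 lay below TAC replicate 1. Acot1 differed by -1.06 ± 0.34 between TAC and sham (limma's unadjusted p = 0.0072, adjusted p = 0.772), a fold of 0.48, by 0.89 ± 0.34 between LD and TAC (unadjusted p = 0.0197, adjusted p = 0.537) and by -0.17 ± 0.34 between LD and sham. The TAC against sham value was -0.67 when TAC replicate 3 was left out and -1.47 when TAC replicate 1 was. The LD against TAC value was 0.50 without TAC replicate 3 and 0.43 with the counting class as a term. Acot1 and its neighbour Acot2 are close copies, and reads could be split between them. Acot2, the mitochondrial copy, had 113, 87.2 and 40.2 FPKM in LD hearts, 129, 92.5 and 65.5 FPKM in TAC hearts and 141, 80.0 and 118 FPKM in sham hearts, with overlap in each comparison. The log2 ratio of Acot1 over Acot2 averaged -1.63 ± 0.31 in TAC and -0.83 ± 0.49 in sham (SD, n = 3; exact two-sided permutation p = 0.1, the smallest that 3 against 3 can give), and -0.43 ± 0.42 in LD against the same TAC value (exact p = 0.1). Over the 15 tests of 5 ratios in 3 comparisons both have an adjusted p of 0.64. Acot13, a thioesterase on the outside of mitochondria, was the highest of the step with 414, 662 and 554 FPKM in LD hearts, 501, 623 and 508 FPKM in TAC hearts and 456, 604 and 392 FPKM in sham hearts. Its groups overlapped in each comparison. Ucp3, an uncoupling protein of muscle, averaged 39.4 ± 18.0 FPKM in LD, 49.5 ± 25.0 in TAC and 63.1 ± 22.2 in sham, and differed by -0.72 ± 0.39 between LD and sham (limma's unadjusted p = 0.0865), by -0.32 without LD replicate 3 and by -1.03 without LD replicate 2.

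Of the genes of the lipid droplet, Plin5, which coats droplets where they touch mitochondria (chromosome 17, 56111601 to 56117596), had 51.7, 60.9 and 77.7 FPKM in LD hearts, 46.7, 51.2 and 57.8 FPKM in TAC hearts and 86.7, 79.7 and 70.0 FPKM in sham hearts. All TAC values lay below all sham values, and the LD values overlapped both. Plin5 differed by -0.59 ± 0.22 between TAC and sham (limma's unadjusted p = 0.0197, adjusted p = 0.825) and by 0.27 ± 0.22 between LD and TAC. It differed from most of the other genes in that TAC replicate 3 was its highest TAC heart, and without that library the TAC against sham value was -0.67. Dgat2, which makes triglyceride (chromosome 7, 99153658 to 99182719), had 125, 192 and 201 FPKM in LD hearts, 148, 165 and 73.6 FPKM in TAC hearts and 204, 208 and 184 FPKM in sham hearts. All TAC values lay below all sham values, and TAC replicate 3 was the lowest of all. Dgat2 differed by -0.70 ± 0.30 between TAC and sham (limma's unadjusted p = 0.034, adjusted p = 0.903), and by -0.34 without TAC replicate 3. Pnpla2, the lipase that starts triglyceride breakdown and the highest gene of the step, had 207, 253 and 196 FPKM in LD hearts, 237, 189 and 131 FPKM in TAC hearts and 162, 214 and 253 FPKM in sham hearts. Its groups overlapped in each comparison, as did those of Lipe, the hormone-sensitive lipase, at 37.7 ± 10.0, 33.1 ± 14.1 and 33.0 ± 11.9 FPKM in LD, TAC and sham.

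**Figure D3:**
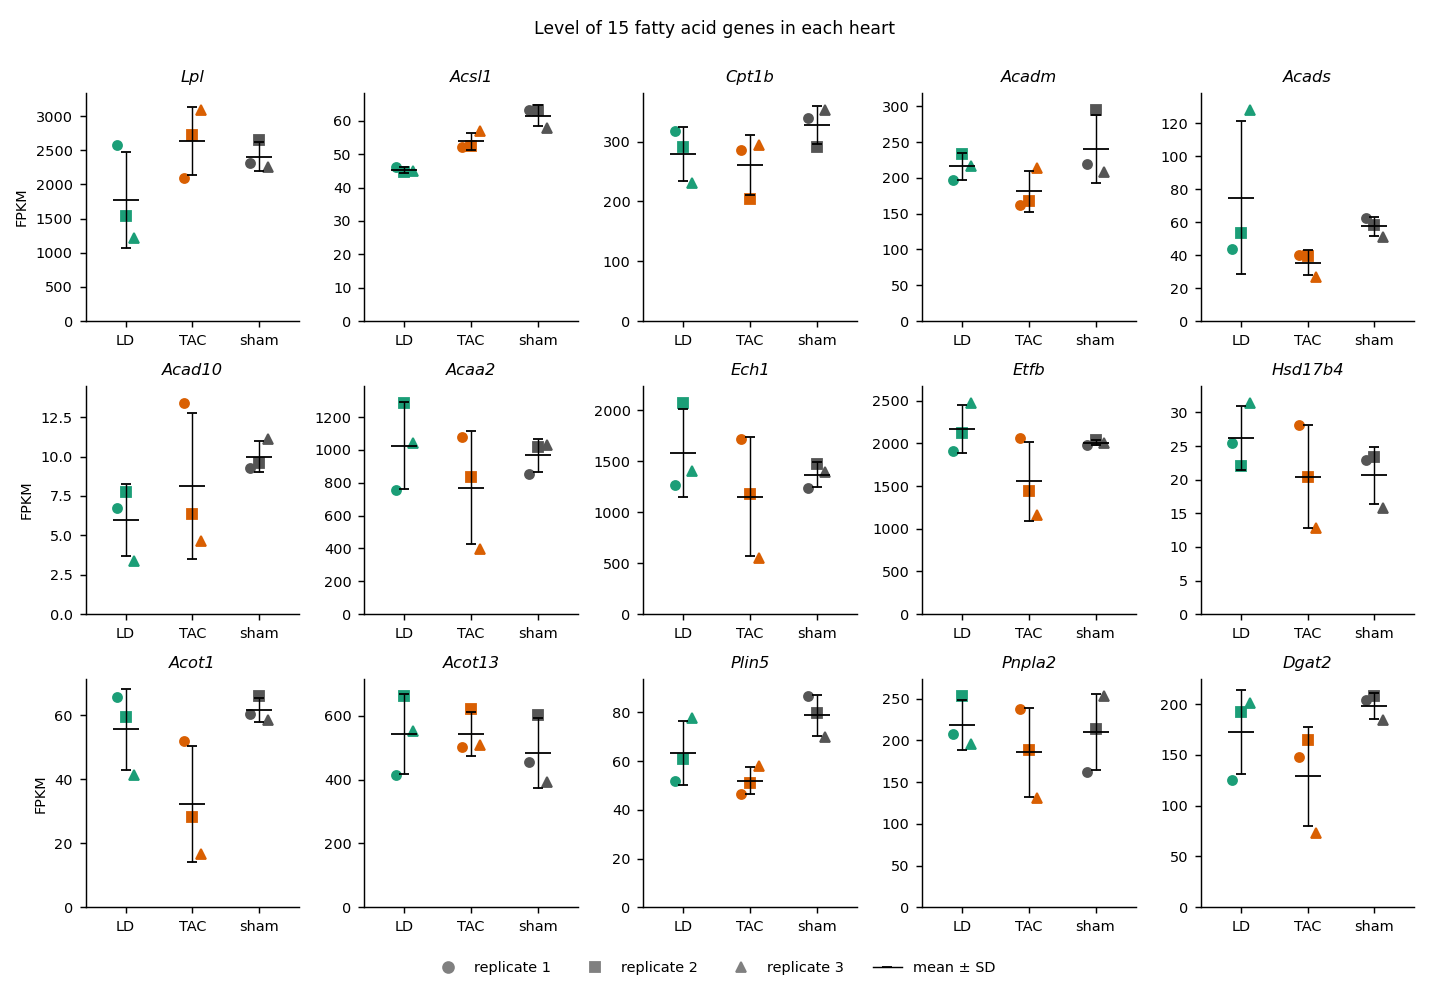
FPKM (y axis, from 0) of 15 genes in each LD, TAC and sham heart (x axis), 1 symbol per replicate, with the mean and SD of 3 hearts. Acot1, Plin5, Dgat2, Acads and Acsl1 have all TAC values below all sham values, and the Acads value of 128 in LD replicate 3 stands far above the rest.

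Ratios of the other 4 pairs chosen for their roles gave no p at the smallest possible value. The log2 ratio of Cpt1a over Cpt1b averaged -4.41 ± 0.49 in TAC and -4.92 ± 0.32 in sham (exact permutation p = 0.3), and -4.62 ± 0.19 in LD (p = 0.6 against TAC in the same exact test). Acacb over Mlycd, the enzymes that make and remove malonyl-CoA, averaged -0.75 ± 0.38 in LD, -0.65 ± 0.61 in TAC and -0.66 ± 0.35 in sham. Dgat2 over Pnpla2, making against breaking triglyceride, averaged -0.36 ± 0.38, -0.56 ± 0.33 and -0.06 ± 0.39 in LD, TAC and sham (exact permutation p = 0.2 for TAC against sham). Angptl4 over Lpl rests on Angptl4 values at or below 14 fragments, so it follows Lpl alone on this scale (-10.69 ± 0.57 in LD, -11.24 ± 0.27 in TAC and -11.15 ± 0.18 in sham).

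The deviations of these genes varied with the GC content of their transcripts, in some libraries upward and in others downward. Across the 37 genes, the correlation between GC content and the deviation of a library from the gene's mean over all libraries was 0.06, 0.41 and 0.01 in LD, 0.44, -0.25 and -0.63 in TAC and -0.20, -0.11 and 0.49 in sham (Pearson's r, n = 37 genes of the same libraries, a description). In TAC replicate 3 the 12 genes between 52.5% and 56.2% GC had a median deviation of -0.94, and the 3 genes up to 44.5% one of 0.33, while over all genes of those bins the medians were -0.15 and 0.50. The 37 genes had a median GC content of 52.8%, and the 10987 tested genes with a value one of 50.5%. With each library's GC content curve removed, the median of the 37 genes was -0.30 in TAC against sham, 0.33 in LD against TAC and 0.07 in LD against sham. With that curve removed and TAC replicate 3 left out, the first 2 were -0.11 and 0.11.

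**Figure D4:**
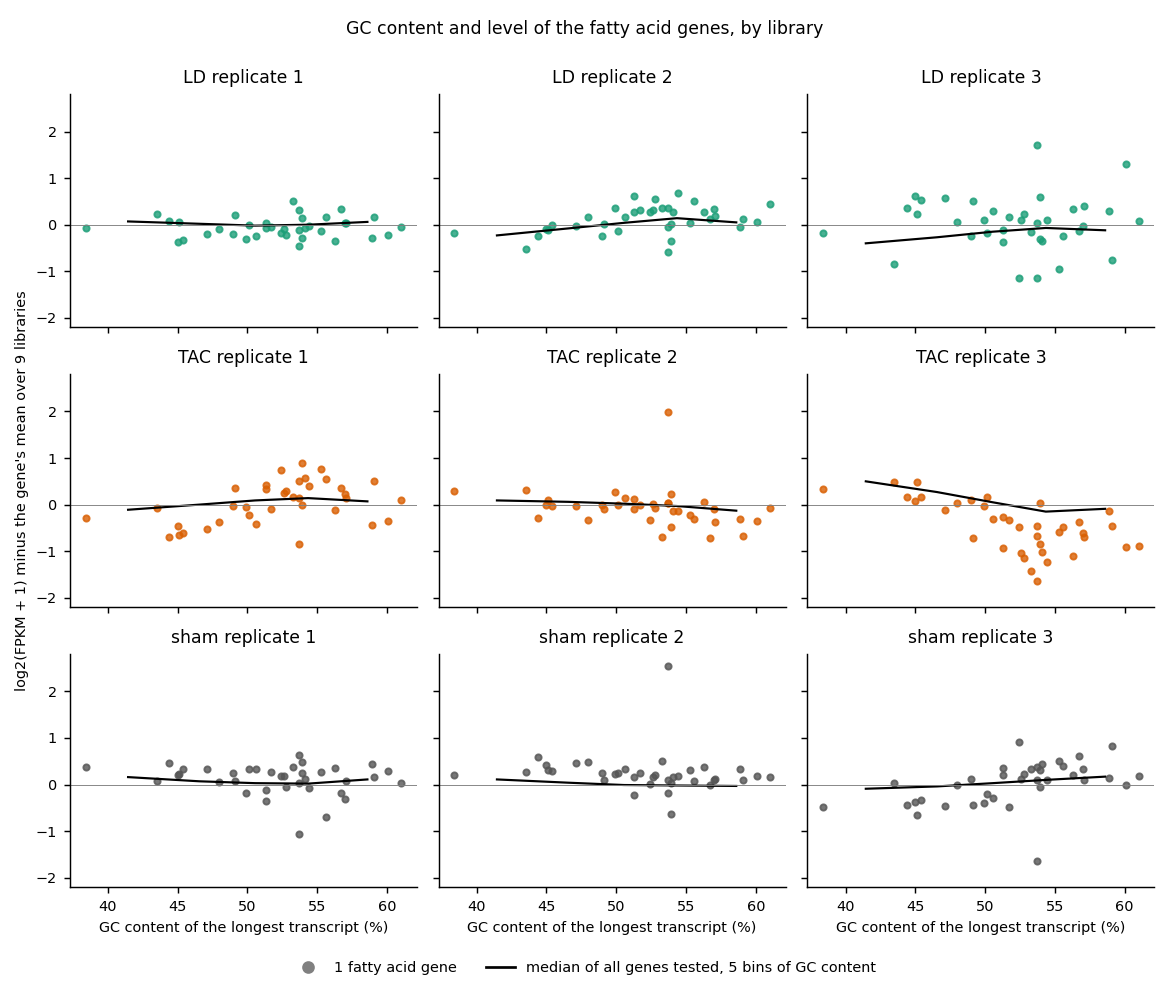
Deviation of log2(FPKM + 1) from the gene's mean over 9 libraries (y axis) against the GC content of the longest transcript in percent (x axis) for the 37 genes, 1 panel per library. The black line joins the medians of all tested genes in 5 bins of GC content. The points of TAC replicate 3 fall with GC content (r = -0.63), and those of TAC replicate 1 and sham replicate 3 rise (r = 0.44 and 0.49).

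Hadha and Hadhb, which encode the alpha and beta subunits of the mitochondrial trifunctional protein, did not keep a constant ratio between hearts, a pair chosen after its values were seen. Hadha had 163, 266 and 159.8 FPKM in LD hearts, 218, 161 and 90.5 FPKM in TAC hearts and 159, 192 and 199.5 FPKM in sham hearts. Hadhb had 79.7, 99.9 and 145 FPKM in LD hearts, 65.8, 97.7 and 112 FPKM in TAC hearts and 126, 123 and 79.7 FPKM in sham hearts. Their ratio was 2.05, 2.66 and 1.11 in LD, 3.31, 1.65 and 0.809 in TAC and 1.26, 1.56 and 2.51 in sham, with no group apart from the others. The recovered length of Hadhb was 5392 bases, above the 2048 of its longest annotated transcript, while Hadha had 3843 against 4017. Which subunit stands higher therefore depends on the length used, while the change of the ratio between hearts does not. Other genes varied in the same opposed way, again grouped after their values were seen. Hadha with Crat, Slc27a1, Acacb, Ucp3, Lipe and Pnpla2 deviated on average by 0.47 in TAC replicate 1 and 0.53 in sham replicate 3, where Hadhb with Decr1, Acadl, Etfa, Etfdh and Hadh stood at -0.56 and -0.42. In LD replicate 3 the first set stood at -0.40 and the second at 0.44. Transcripts of the first set had 51.3% to 59.1% GC and those of the second 44.4% to 50.6%, and the part of GC content in this pattern was not tested. The genes lie head to head on chromosome 5 and start 273 bases apart by RefSeq, so their promoter windows (250 bases before to 50 after the start, GRCm38.p6) share 228 bases. The 85 bases between the annotated genes, chr5:30155163-30155247 on the plus strand, are shown because both genes are read outward from them, with the bases in both windows in capitals.
Hadha to Hadhb: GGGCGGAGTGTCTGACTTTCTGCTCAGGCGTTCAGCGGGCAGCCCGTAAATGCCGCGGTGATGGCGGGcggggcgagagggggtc

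**Figure D5:**
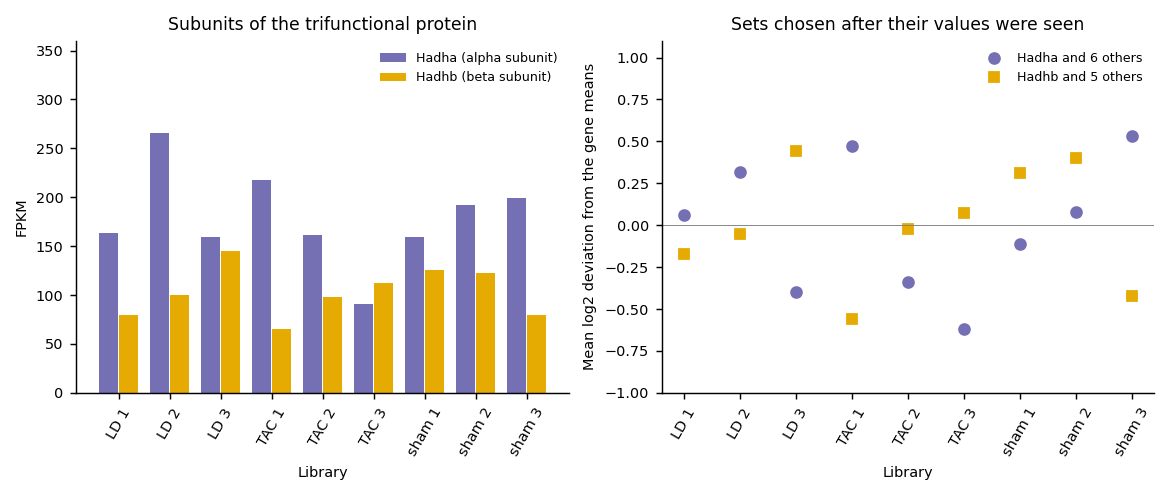
Left: FPKM (y axis) of Hadha and Hadhb in each library (x axis). Right: mean log2 deviation from the gene means of Hadha with 6 other genes and of Hadhb with 5 other genes. Hadha exceeds Hadhb in FPKM in 8 of 9 libraries, most in TAC replicate 1 (ratio 3.31), with Hadhb scaled by a length above its longest transcript. The sets lie on opposite sides of 0 in all libraries but TAC replicate 2 and sham replicate 2.

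Promoter windows from RefSeq (GRCm38.p6) were at hand for 29 of the 38 genes. The letters AGGTCA, the core that PPAR, retinoid X and estrogen-related receptors bind, were searched on both strands. They occurred in the windows of 7 genes (Acacb, Acadm, Acadvl, Cd36, Cpt1a, Plin5 and Ucp3). Counted by window, 8 of the 34 windows of the 29 genes held them, beside 16.3% of all 32851 windows. The direct repeat of AGGTCA with any 1 base between, allowing 1 mismatch, was in none of the members' windows and in 0.554% of all windows, and TNAAGGTCA in none and in 1.28%. A missing match says only that these letters are not in these 300 bases. Of the genes whose values are given in full above, Plin5, Acadm and Acadvl hold the letters, and Acsl1, Acads, Acad10, Hadha, Hadhb, Ech1, Etfb, Acot1, Acot2 and Pnpla2 do not. No window was at hand for Lpl, Angptl4, Cpt1b, Acaa2, Hsd17b4, Acot13 and Dgat2. The matches that lie ahead of the whole annotated gene are shown, so that the letters can be read in their surroundings. Each line gives 30 bases on the gene's strand, with AGGTCA or its complement TGACCT in capitals.
Plin5, chr17:56117701-56117730, minus strand: agtcctagtctgAGGTCAgccatggtgact
Acadm, chr3:153944864-153944893, minus strand: gTGACCTtcgggctccggtgacactgggca
Ucp3, chr7:100472830-100472859, plus strand: ttaaagagccccAGGTCAcggaagctaaac
Ucp3, chr7:100472935-100472964, plus strand: gaattaggtttcAGGTCAgctggtgcacag
Acadvl, chr11:70015498-70015527, minus strand: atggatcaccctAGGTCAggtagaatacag

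Other genes of the same pathways were read from 9 lists, and none of their genes passed limma's adjusted threshold in any comparison. The transcription regulators of fatty acid genes had 18 tested members, with a median of -0.19 in TAC against sham (14 below 0), -0.18 in LD against TAC (11 below 0) and -0.40 in LD against sham (17 below 0). Gabpa, a regulator of mitochondrial genes, averaged 7.12 ± 2.11 FPKM in LD and 12.2 ± 1.63 in TAC with no overlap (-0.73 ± 0.26, limma's unadjusted p = 0.0153, adjusted p = 0.537). Its LD values also lay below all sham values (10.4 ± 0.897 FPKM in sham, -0.53 ± 0.26). Esrra, the estrogen-related receptor alpha, averaged 90.5 ± 13.2 FPKM in TAC and 139 ± 22.9 in sham with no overlap (-0.61 ± 0.24, limma's unadjusted p = 0.0263, adjusted p = 0.842). Ppargc1b, a coactivator of these receptors, averaged 4.26 ± 1.12 FPKM in TAC and 7.18 ± 2.16 in sham (-0.63 ± 0.28, unadjusted p = 0.0446, adjusted p = 0.909). Of 11 tested other targets of PPAR alpha, 6 lay below 0 in TAC against sham. Slc25a34, a mitochondrial carrier, averaged 44.0 ± 6.83 FPKM in TAC and 71.8 ± 4.51 in sham (-0.70 ± 0.22, limma's unadjusted p = 0.00655, adjusted p = 0.772). Pdk4, a kinase that shuts pyruvate out of oxidation, averaged 298 ± 16.8 FPKM in LD and 553 ± 147 in TAC with no overlap (-0.85 ± 0.24, limma's unadjusted p = 0.00283, adjusted p = 0.495). LD values of Pdk4 also lay below all sham values (482 ± 57.5 FPKM in sham, -0.69 ± 0.24, limma's unadjusted p = 0.0113, adjusted p = 0.875). Pdk2, of the same family, averaged 84.5 ± 3.91 FPKM in LD and 56.4 ± 15.6 in TAC, also without overlap and in the opposite direction (0.61 ± 0.24, unadjusted p = 0.0229, adjusted p = 0.537; 0.36 without TAC replicate 3).

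Other mitochondrial oxidation genes (21 tested) had medians of -0.09 in TAC against sham and 0.19 in LD against TAC (0.07 and 0.06 without TAC replicate 3), with none in the first and Acad12 alone in the second at an unadjusted p under 0.05. Acad12, a relative of Acad10, averaged 17.0 ± 4.20 FPKM in LD and 9.80 ± 4.66 in TAC with overlap (0.82 ± 0.35, limma's unadjusted p = 0.0333, adjusted p = 0.54; 0.41 without TAC replicate 3). Other uptake, activation and carnitine genes (21 tested) had medians of -0.13 and 0.03 with none at that p in either comparison, and peroxisomal genes (18 tested) -0.04 and 0.13 with none. Other lipid droplet and triglyceride genes (19 tested) stood at -0.14 and 0.17, and at -0.06 and -0.03 without TAC replicate 3, so that the second changed sign. G0s2, an inhibitor of the lipase Pnpla2, averaged 57.3 ± 15.7 FPKM in TAC and 103 ± 37.7 in sham (-0.80 ± 0.29, limma's unadjusted p = 0.015, adjusted p = 0.789). Abhd5, the activator of that lipase, averaged 8.30 ± 0.812 FPKM in LD and 13.3 ± 3.14 in TAC with no overlap (-0.60 ± 0.26, limma's unadjusted p = 0.0386, adjusted p = 0.547). Agpat3, of the same list, was lower in TAC than in sham with no overlap (-0.50 ± 0.22, limma's unadjusted p = 0.0383, adjusted p = 0.903). It was higher in LD than in TAC, also with no overlap (0.48 ± 0.22, limma's unadjusted p = 0.0453, adjusted p = 0.558). Mgll was lower in LD than in TAC with overlap (-0.58 ± 0.25, limma's unadjusted p = 0.0344, adjusted p = 0.54). Without TAC replicate 3 the LD against TAC values of Abhd5, Agpat3 and Mgll were -0.43, 0.39 and -0.76. Other thioesterases and uncoupling genes (9 tested) stood at -0.04 and -0.07. The list of fatty acid synthesis and malonyl-CoA genes (20 tested), not all of them synthesis enzymes, stood at -0.04 and 0.14. Slc25a14, of the uncoupling list, differed by -0.82 ± 0.36 in LD against TAC (limma's unadjusted p = 0.0389, adjusted p = 0.547). Mcat, which loads malonyl groups for mitochondrial fatty acid synthesis, averaged 40.7 ± 4.93 FPKM in LD and 25.1 ± 6.97 in TAC with no overlap (0.71 ± 0.24, limma's unadjusted p = 0.0117, adjusted p = 0.537). Prkaa1, of the same list, went the other way with overlap (-0.78 ± 0.34, limma's unadjusted p = 0.0379, adjusted p = 0.547, and -0.45 without TAC replicate 3). The tricarboxylic acid cycle, which burns the acetyl-CoA these genes make, had medians over 22 genes of -0.15 in TAC against sham, 0.26 in LD against TAC and 0.14 in LD against sham, with no gene at an unadjusted p under 0.05, beside -0.32, 0.26 and -0.03 for the 37 genes. Without TAC replicate 3 the cycle's first 2 medians were -0.05 and 0.18, and those of the 37 genes -0.11 and 0.08.

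No marker of any cell type passed limma's adjusted threshold in any comparison. All 10 fibroblast markers lay above 0 in TAC against sham, with a median of 0.65 and 6 of them higher at an unadjusted p under 0.05, where 2.85% of all genes were. Per library, their median difference from the sham mean was 0.02, 1.03 and 1.18 in TAC hearts and 0.20, 0.05 and -0.21 in sham hearts. TAC replicate 1 thus lay within the sham range, and TAC replicates 2 and 3 are of the counting class with few odd counts. In LD against TAC the median of the fibroblast markers was -0.74 with 9 of 10 below 0. There 4 (Dcn, Tcf21, Pdgfra and Dpt) were lower at that p, where 6.31% of all genes were. Of the 10 cardiomyocyte markers, 7 lay below 0 in TAC against sham (median -0.06, and 0.03 without TAC replicate 3). There Tnni3 and Myh6 were lower at that p, where 2.58% of all genes were, beside the median of -0.32 over the 37 genes. In LD against TAC, 7 of the 10 lay above 0 (median 0.14). Myh6, Myl3, Tnni3 and Mybpc3 were higher at that p, where 2.51% of all genes were, beside the median of 0.26 over the 37 genes. The fibroblast markers had summed levels of 1152 to 1737 FPKM in LD, 1565 to 2511 in TAC and 1007 to 1206 in sham. The summed cardiomyocyte markers were 47769 to 75648 FPKM in LD, 36684 to 48115 in TAC and 47307 to 50033 in sham, with the extremes in LD replicate 3 and TAC replicate 3. Erythroid markers summed to 1205 to 2274 FPKM in LD, 2238 to 11052 in TAC and 516 to 3343 in sham. Endothelial markers, a cell type that also takes up fatty acids, had medians of -0.04 in TAC against sham and 0.01 in LD against TAC. The part of these cells in the values of the 37 genes was not tested. The 38 genes together took 1.74% to 1.97% of the FPKM sum in LD hearts, 1.78% to 2.01% in TAC hearts and 2.03% to 2.18% in sham hearts. That share weighs most the genes of highest level, such as Lpl and Etfb (means of 2272 and 1911 FPKM). It also depends on the FPKM sum of all genes, which was 471009 in TAC replicate 3 and 597122 in LD replicate 3. The median difference of the 37 genes in LD against sham was -0.03.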

How the data were processed

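Poly-A RNA of 9 mouse hearts was sequenced, 3 each from LD, TAC and sham mice. The deposited table gives FPKM values made by the authors. Per the submitters' processing notes, CASAVA 1.8, fastp 0.20.0, HISAT2 2.1.0, Cufflinks 2.2.1, HTSeq 0.7.2, DESeq and the build GRCm38 were used, with no role given for any of them. Of the 21989 symbols, 5727 were at 0 in all libraries.

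The 38 genes and all lists were chosen with earlier results of these data known. Genes with at least 1 FPKM in at least 3 libraries were tested on log2(FPKM + 1) with limma 3.58.1 in R 4.3.3 (empirical Bayes with trend, a single fit of the 9 libraries, leaving 6 residual degrees of freedom). P-values were adjusted by the Benjamini-Hochberg method over all 11380 genes, and an adjusted p under 0.05 was a call. A log2(FPKM + 1) difference understates changes of low genes. Values per heart are given for genes with an unadjusted p under 0.05 or groups that do not overlap in any comparison, and for the highest gene of each step. Acadvl, Hadha, Hadhb, Acot2 and Angptl4 were added after their values were seen. Of each pathway list, counts and up to 4 genes of smallest p were used. Log2 ratios (also with 1 added) were compared by exact two-sided permutation tests.

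Whole fragments were recovered from the FPKM values for all 16262 genes above 0 in any library (within 0.001 of a whole number) and used for limma's voom. In the 4 libraries with few odd counts the independent fragments may be fewer than these totals, so limits from counts cover counting error only. Coordinates, GC content and exon overlaps came from GENCODE on GRCm38. Pairing by replicate number was checked and not found. The alternatives were another pseudocount, filters, scalings, a replicate block, fits of 2 groups, voom and each library left out. Removing a GC content curve and a term for the counting class were chosen after seeing the data. The fit was tested on simulated data.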

Additional observations from a re-analysis of the deposited data

How the results depend on the processing

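No gene of the 37 passed limma's adjusted threshold in any of the 21 other settings. The count of all genes called in TAC against sham, 0 in the reported fit, was 2 with a mean of at least 5 FPKM, 4 with voom and 0 to 13 with a library left out (13 without TAC replicate 1, 1 without TAC replicate 2, 1 without sham replicate 3). In LD against sham, also 0, it was 3 with a mean of at least 5 FPKM, 10 with only these 2 groups in the fit, 3 with voom, 1 with the GC content curve removed and TAC replicate 3 left out, and 0 to 8 with a library left out (8 without TAC replicate 1, 2 without TAC replicate 2, 1 without TAC replicate 3, 1 without sham replicate 3). The test for any group difference called 2 genes with a mean of at least 5 FPKM and 0 to 8 with a library left out. The median of the 37 genes in TAC against sham, -0.32, ranged from -0.39 to -0.11 with a library left out. It was -0.11 without TAC replicate 3 and LD replicate 3, and -0.11 with the GC content curve removed and TAC replicate 3 left out. With a replicate block the calls were 0 in all 3 comparisons and the medians -0.32, 0.26 and -0.03. The labels do not say that the numbers pair hearts: same-numbered hearts correlated between -0.24 and 0.15, and 1 of 9 correlated best with its own number.

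For the 15 genes given per heart by the rule, 945 values over 45 gene and comparison pairs kept their side of an unadjusted p of 0.05 in 851 cases. In 65 the p was no longer under 0.05, in 29 it came under it, and in none did a difference with p under 0.05 change sign. Of the ratios, 118 values moved by less than 1 SD and 2 by more: Acot1 over Acot2 in LD against TAC without TAC replicate 3 and LD replicate 3 (0.83), and Angptl4 over Lpl in LD against TAC with 0.1 added (0.09). With 3 hearts a group and totals of 7414304 to 18079383 fragments, the standard errors of 0.20 to 0.41 of the 37 genes other than Acadvl limit what differences could be seen.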
